A study of Homo sapiens with 4 samples.

Results

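Heat shock proteins and their cochaperones were followed through the loss of RBM10, an RNA-binding splicing regulator, in A549 cells, a human lung adenocarcinoma line. The members were the genes whose symbol begins with HSPA, HSPB, HSPD, HSPE, HSPH, HSP90 or DNAJ, together with AHSA1 and AHSA2, while HSPBAP1 and HSPBP1 were left out. By this rule 67 of the 17041 genes in the expression table were members. They were 3 HSP90 genes, 2 AHSA genes, 14 genes of the HSP70 and HSP110 families, 3 chaperonin genes, 4 small heat shock protein genes, and 4 DNAJA, 10 DNAJB and 27 DNAJC genes. AHSA2 carries the name AHSA2P today and is annotated in GENCODE v29 as a transcribed unitary pseudogene. Of 3768 splice junction events in 2166 genes, 19 events in 6 genes belonged to members, with 9 in AHSA2P, 3 in DNAJC25, 2 each in DNAJC2, DNAJC21 and DNAJC22, and 1 in DNAJC5.

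Poly-A RNA was compared between 2 libraries of RBM10 wild-type A549 cells and 2 of RBM10 knockdown A549 cells. Knockdown cells received 1 lentiviral shRNA against RBM10 and were kept in puromycin at 1 µg/mL for 10 to 14 days, so they were a selected mixed population and not single clones. The labels do not say whether wild-type cells were given puromycin or a control construct, so RBM10 loss, transduction and selection cannot be told apart. Expression was given as RPKM, a read number per gene length and sequencing depth. Splicing was given as PSI, the share of reads that use an examined junction within a set of competing junctions.

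Heat shock proteins are molecular chaperones. HSP70 binds exposed stretches of unfolded protein in a cycle driven by ATP, J-domain proteins (the DNAJ genes) bring it clients and trigger ATP hydrolysis, and HSP110 proteins exchange the nucleotide. HSP90 acts later in folding, on kinases and hormone receptors among others, and AHSA1 stimulates its ATPase. Small heat shock proteins hold unfolded clients without ATP, and HSP60 with HSP10 folds proteins inside mitochondria. Many of these genes are induced by the transcription factor HSF1.

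RBM10 mRNA stood at 35.5 and 40.8 RPKM in wild type against 11.6 and 10.9 RPKM in knockdown, or 29.5% of the wild-type mean. Libraries were read in pairs of 100 bp per the labels, and depth relative to the deepest library lay between 84.5% and 100%. The epithelial keratins KRT8 and KRT18 were high in all 4 libraries, and the summed level of 5 epithelial markers was 1228 to 1357 RPKM in wild type and 2448 to 2549 RPKM in knockdown. The lung marker NKX2-1 and the surfactant genes SFTPB, SFTPC and SFTPA1 had no row in the table, and NAPSA was at 0.340 to 0.736 RPKM. Fibroblast markers summed to 0.557 and 0.833 RPKM in wild type and to 2.10 and 1.99 RPKM in knockdown, and PTPRC of blood cells had no row. The part that these marker differences have in the results was not tested.

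In knockdown cells the HSP90 activator AHSA1 and the constitutive HSP70 gene HSPA8 fell to 45.5% and 59.3% of wild type, while the small heat shock protein gene HSPB1 rose to 171% and the J-domain gene DNAJC12 to 272%. The major HSP90, mitochondrial HSP70 and chaperonin genes differed less and did not pass the test. Of the 67 members, 50 reached a mean of 1 RPKM in at least 1 group and were tested with limma on log2(RPKM + 1), with Benjamini-Hochberg adjustment over all 10182 tested genes. At an adjusted p under 0.05, 8 members were higher, beside 15.3% of all tested genes, and 6 were lower, beside 7.03%. The median log2 change of the tested members was -0.11, against 0.02 over all tested genes. The RPKM of the 4 libraries did not overlap between groups in 10 higher and 20 lower members, beside 34.3% and 27.3% of all tested genes. The p-values rest on the spread between 4 libraries alone, which may be technical, and in bulk RNA fewer cells of a type and less RNA per cell cannot be told apart.

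**Figure D1:**
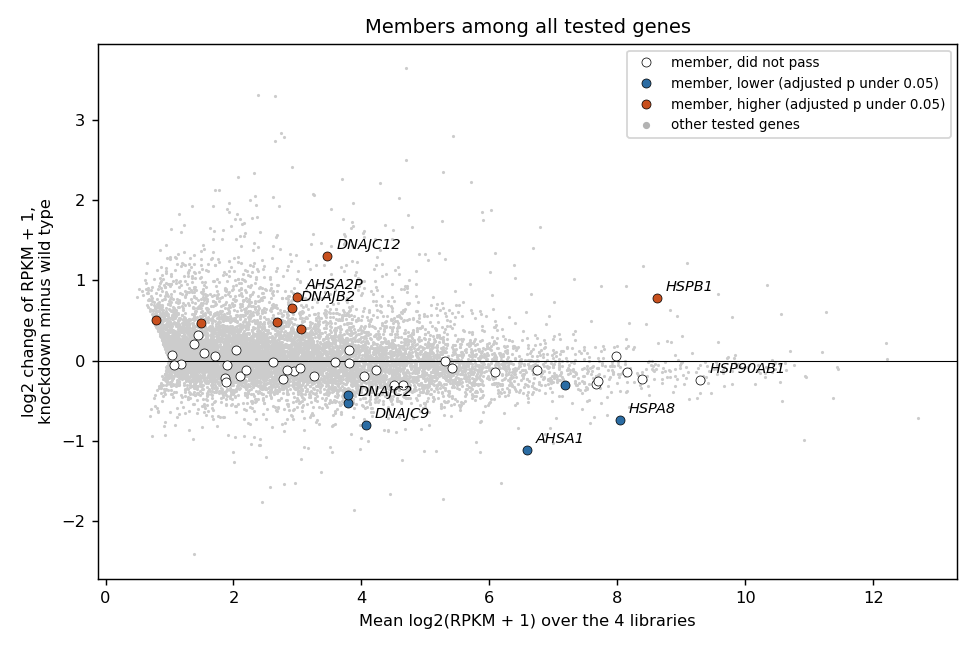
Each point is a tested gene, with its mean log2(RPKM + 1) over the 4 libraries on the x axis and its log2 change, knockdown minus wild type, on the y axis. Filled circles are members past the test (8 higher in orange, 6 lower in blue), open circles the 36 that did not pass, and grey points the other tested genes. AHSA1 and HSPA8 lie at the lower edge of the abundant genes, and HSPB1 lies well above zero at a high level.

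The balance of higher and lower calls depended on scaling. Among all called genes 68.5% were higher, a share that fell to 52.5% with quantile normalization, 60.6% with cyclic loess and 62.1% with TMM-like factors. Among members the counts were then 4 higher and 6 lower, 6 and 5, and 7 and 8. Without wild-type replicate 1 there were 5 higher and 3 lower members, and without knockdown replicate 1 there were 7 and 3. The members' median also went with their level. Of 436 tested genes at 100 RPKM or more (by mean log2 level) the median change was -0.11, with 6.19% higher and 12.8% lower. Of the 10 members among them the median was -0.24, with 1 higher and 2 lower. On the scale used, a fold change understates the change of genes at low levels.

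**Figure D2:**
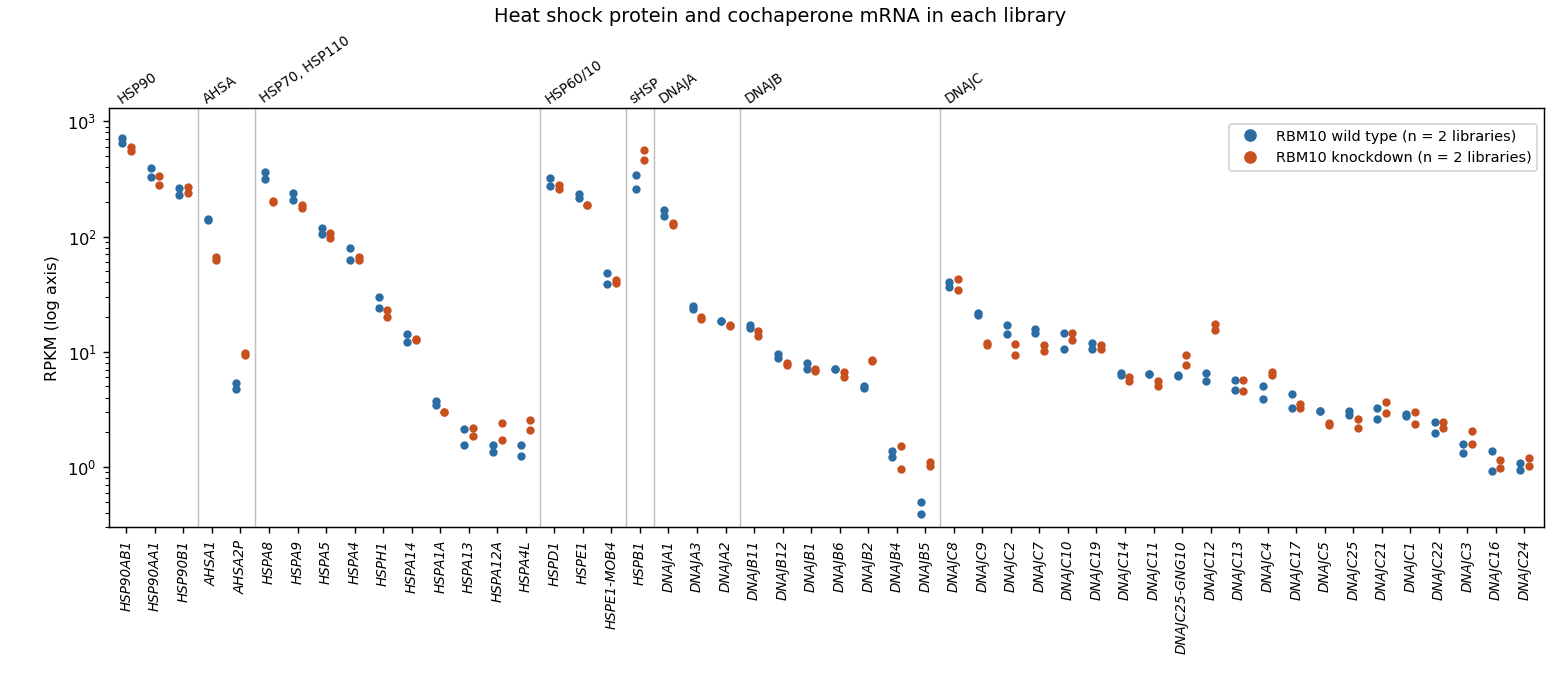
RPKM (log axis) of each tested member in every library, by family and in falling order of level, with 2 wild-type libraries in blue and 2 knockdown libraries in orange. The groups stand apart in AHSA1, HSPA8, DNAJC9, DNAJC12 and DNAJB2 and lie close together in HSP90B1 and HSPA5.

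As a share of each library's RPKM sum, all members together held 1.25% and 1.10% in wild type and 1.07% and 1.14% in knockdown, so the groups overlapped. By family, the shares of HSP90, chaperonin, DNAJB and DNAJC genes also overlapped between groups, and no test was run on shares. The HSP70 and HSP110 genes held 0.289% and 0.241% in wild type and 0.196% and 0.214% in knockdown, which did not overlap. HSPA8 alone was 364 and 314 of their 853 and 734 RPKM in wild type. In knockdown it was 199 and 204 of 577 and 611 RPKM. The AHSA genes (0.0499% and 0.0474% against 0.0244% and 0.0264%) did not overlap either. The same held for the DNAJA genes (0.0723% and 0.0634% against 0.0553% and 0.0590%). Small heat shock proteins, almost all of it HSPB1, held 0.0886% and 0.111% in wild type and 0.191% and 0.163% in knockdown. Without HSPB1 the members' share was 1.16% and 0.991% in wild type and 0.875% and 0.978% in knockdown.

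HSP90 itself was among the most abundant mRNAs. HSP90AB1, the constitutive cytosolic HSP90, ranked 72nd of all genes by mean RPKM, with 718 and 649 RPKM in wild type and 554 and 598 RPKM in knockdown. Both knockdown values lay below both wild-type values, yet its log2 change of -0.25 did not pass (limma, adjusted p = 0.0914), and it was -0.15 with quantile normalization and -0.13 with cyclic loess. The inducible form HSP90AA1 was at 394 and 328 RPKM in wild type and 282 and 332 RPKM in knockdown, which overlapped (log2 change -0.23; limma, adjusted p = 0.192). Leaving out 1 library moved that change from -0.10 (without wild-type replicate 1) to -0.36 (without wild-type replicate 2). HSP90B1, the HSP90 of the endoplasmic reticulum, was at 263 and 228 RPKM in wild type and 241 and 272 RPKM in knockdown (log2 change 0.06; limma, adjusted p = 0.718), and its log2 change was -0.04 without wild-type replicate 2 and -0.03 without knockdown replicate 2.

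AHSA1 is the HSP90 cochaperone that speeds up the ATPase cycle of HSP90. Its mRNA (chr14:77457870-77469474, hg38, plus strand) stood at 142 and 139.7 RPKM in wild type against 62.3 and 66.0 RPKM in knockdown. Both knockdown values were less than any wild-type value by a wide margin, and replicates of a group lay close together. The log2 change of -1.12 (SE 0.09; limma, adjusted p = 3.65e-05) was the 20th lowest of the 10182 tested genes. Relative to its partner in the same library, AHSA1 stood at 0.198 and 0.215 of the HSP90AB1 level in wild type and at 0.112 and 0.110 in knockdown. AHSA1 overlaps VIPAS39 on the opposite strand, and whether the counting used strand is not given in the sources used here. VIPAS39 was at 10.6 and 10.4 RPKM in wild type and 9.28 and 10.7 RPKM in knockdown, far below the AHSA1 level, and did not pass (limma, adjusted p = 0.716).

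AHSA2P, the unitary pseudogene related to AHSA1, went the other way. It was at 5.33 and 4.77 RPKM in wild type and 9.71 and 9.30 RPKM in knockdown, with no overlap. The log2 change was 0.80 (SE 0.11; limma, adjusted p = 0.000868). AHSA1 was 26.7 and 29.3 times as abundant as AHSA2P in the wild-type libraries and 6.41 and 7.09 times in the knockdown libraries. AHSA2P lies at chr2:61177418-61191203 on the plus strand and overlaps USP34 on the opposite strand, which was at 5.55 and 4.44 RPKM in wild type and 5.05 and 7.00 RPKM in knockdown (limma, adjusted p = 0.341). The changes of both AHSA genes passed in all 13 alternative settings.

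AHSA2P also held 9 of the 19 member events, and 8 of these lay in 827 bases between the exon edge E6.2 and exon E9.1 (edge and exon names as in the authors' table). Splicing joins E6.2 directly to E9.1, or stops on the way at the small exons E7.1 of 27 bases and E8.1 of 102 bases. Both exon lengths are multiples of 3. In 3 transcripts of GENCODE v29 annotated as retained intron (AHSA2P-205, AHSA2P-206 and AHSA2P-214) the stretch is read through without a splice. The sequences below are those edges, taken from AHSA2P-205 (GENCODE v29, hg38, plus strand), with exon bases in capitals. They are shown because reads across these edges carry the splicing differences of the gene.
E6.2 end, chr2:61185609-61185638: TGTAAAGGAGgtaagtaactccctaagcta
E6.3 end, chr2:61185737-61185766: GATGGTGGTGacagaagtctgagcatagtt
E7.1, chr2:61185809-61185885: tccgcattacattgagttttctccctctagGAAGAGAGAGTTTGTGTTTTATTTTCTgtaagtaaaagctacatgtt
E8.1, chr2:61185950-61186101: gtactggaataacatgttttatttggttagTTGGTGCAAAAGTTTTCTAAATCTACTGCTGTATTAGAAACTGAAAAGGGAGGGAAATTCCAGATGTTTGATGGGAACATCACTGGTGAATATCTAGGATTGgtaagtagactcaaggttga
E9.1 start, chr2:61186406-61186455: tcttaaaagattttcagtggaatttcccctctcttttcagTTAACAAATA
The bases after E6.2, E7.1 and E8.1 begin with gt and those before E7.1, E8.1 and E9.1 end with ag, the usual letters of splice sites. The bases after E6.3 begin with ac, and its edge is the annotated end of the last exon of AHSA2P-207 and not a splice site.

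In knockdown, reads that ran from exon into intron took a larger share at all 6 edges examined, and the direct splice took a smaller one. At the far edge of E8.1, reads into intron I8.1 had no wild-type PSI above 0% when set against the direct splice. In knockdown they were at 64.7% and 69.8%. Where I8.1 meets E9.1, both wild-type libraries were likewise at 0%, against 31.9% and 37.4% in knockdown. These were the only edges of the gene at 0% in wild type, and at the other end of E8.1 wild-type libraries already held 19.6% and 25.9% against 38.1% and 47.3% in knockdown. The edge from I6.1 into E7.1 stood at 19.8% and 25.2% in wild type and at 56.9% and 65.3% in knockdown. On leaving E7.1 into I7.1 the PSI was 7.53% and 17.5% in wild type and 28.6% and 51.5% in knockdown, the widest spread between replicates of the 6. The edge of E6.3 into I6.1 was at 46.9% and 45.4% in wild type and at 66.8% and 72.0% in knockdown. At none of these edges did the groups overlap.

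The splice from E6.2 straight to E9.1, set against reads past E6.3, had a PSI of 30.3% and 29.2% in wild type and of 9.58% and 6.47% in knockdown. The splice from E8.1 to E9.1 was at 17.0% and 25.5% in wild type and at 9.45% and 9.09% in knockdown. That splice is set against reads into I8.1 and was at a low PSI in wild type as well. The wild-type PSI of 0% for reads into I8.1 therefore does not show that wild type lacked them. Upstream, the junction from E3.4 to E5.1, which skips the 116 bases of exon E4.1, went from 67.1% and 59.4% to 51.8% and 44.4%. All 3 spliced junctions were thus at lower PSI in both knockdown libraries than in either wild-type library. The first is the reverse of the E6.3 event above. The last is set against the splice from E3.4 into E4.1, so its fall goes with more use of E4.1 and not with intron reads.

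**Figure D3:**
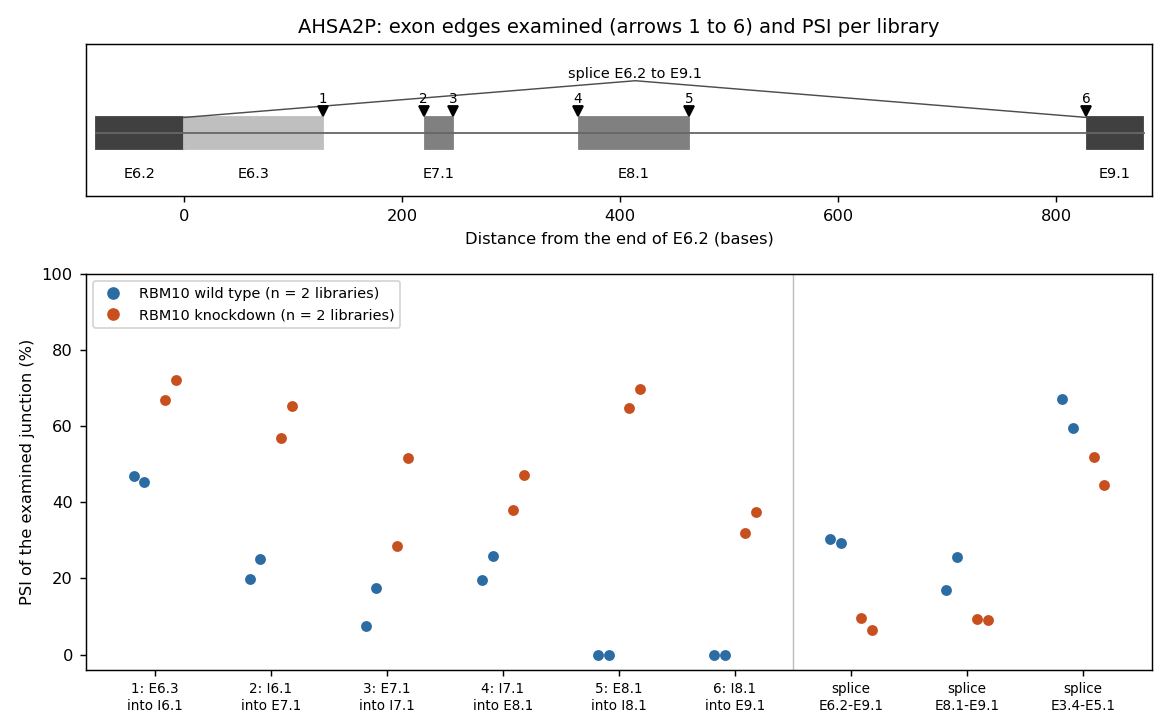
Upper panel, AHSA2P exons (boxes) and introns (line) by distance in bases from the end of E6.2, with arrows 1 to 6 at the edges where reads into an intron were examined. Lower panel, PSI (%) of each of the 9 AHSA2P events in each library, with wild type in blue and knockdown in orange. All 6 edges are higher in knockdown, and edges 5 and 6 are at 0% in both wild-type libraries. The 3 spliced junctions are lower, the last of which skips exon E4.1 and competes with another splice.

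No AHSA2P event passed limma's test on PSI fractions after adjustment over all 3744 tested events. The nearest was E8.1 into I8.1, with a difference of 67.2 percentage points (SE 8.42; limma, adjusted p = 0.111). With the replicate number as a block that event passed (adjusted p = 0.000497), although the numbers were not taken as pairs. Over all tested events 4 passed, or 0.107%, so the test made few calls of any kind. Without adjustment, 7 of the 19 member events were at p under 0.05 with a difference of at least 10 points (6 in AHSA2P and 1 in DNAJC22), beside 18.4% of all events. The libraries did not overlap in 16 of 19, beside 54.2%. Of the 8 events in the stretch, 6 are set against the same direct splice, so they share reads and do not count as separate observations. The table lists only events whose PSI spread over the libraries by 0.15 or more and gives no read numbers, so depth behind each PSI is unknown. Among its 300 events whose examined junction reads into an intron, 103 (34.3%) were higher in knockdown without overlap, and 34 were above 0 in both knockdown libraries with wild type at 0, against 4 the other way round. The pattern of the I8.1 edges was thus shared by other genes of the table.

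In the HSP70 family the most abundant member fell, and no other tested member passed in that direction. HSPA8 encodes HSC70, the HSP70 that cells make without stress and the partner of most cytosolic J-domain proteins. It was at 364 and 314 RPKM in wild type and 199 and 204 RPKM in knockdown, so the groups stood far apart. Its log2 change of -0.75 (SE 0.10; limma, adjusted p = 0.000689) was the 76th lowest of all tested genes and passed in all 13 alternatives. HSPA9, the mitochondrial HSP70, was at 239 and 208 RPKM in wild type and 177 and 187 RPKM in knockdown (log2 change -0.29; limma, adjusted p = 0.0640). HSPA5 (BiP), which serves the endoplasmic reticulum, was at 118 and 105 RPKM in wild type and 98.0 and 107 RPKM in knockdown (log2 change -0.12; limma, adjusted p = 0.441). The former did not overlap between groups and the latter did. Without wild-type replicate 1 their log2 changes were -0.19 and -0.03, and without wild-type replicate 2 they were -0.39 and -0.20.

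The stress-inducible copies had low RPKM in both groups. HSPA1A was at 3.44 and 3.73 RPKM in wild type and 3.01 and 3.01 RPKM in knockdown (limma, adjusted p = 0.248). The RPKM of HSPA8 was 84.0 to 106 times as high in wild type and 66.0 to 67.7 times as high in knockdown. HSPA1A and HSPA1B are near-identical copies that can share reads, and HSPA1B has a single exon. In GENCODE v29, 17 of 980 protein-coding genes with 1 exon had a row, while 14211 of 18971 with several exons did. The RPKM may thus count only reads that cross a splice junction. The levels of HSPA1B and of HSPA1A, which has at most 2 exons there, are therefore uncertain, as are the ratios of HSPA8 to HSPA1A. The same limit bears on the other ratios between genes, the ranks by RPKM and the family shares given here. HSPA6, a stress-inducible HSP70 with a single exon, was not in the table.

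HSPA4L, a testis-enriched member of the HSP110 exchange factors, rose from 1.57 and 1.25 RPKM to 2.09 and 2.58 RPKM. The log2 change was 0.47 (SE 0.13; limma, adjusted p = 0.0257). It did not pass without wild-type replicate 2 (adjusted p = 0.119) or without knockdown replicate 2 (adjusted p = 0.113), and 3 other settings also ended the call. HSPH1, the main HSP110, was at 30.0 and 24.1 RPKM in wild type and 20.1 and 23.2 RPKM in knockdown (log2 change -0.31; limma, adjusted p = 0.117), and its log2 change was -0.15 without wild-type replicate 1 (adjusted p = 0.457) and -0.46 without wild-type replicate 2 (adjusted p = 0.0240). HSPA9 gave adjusted p = 0.276 and 0.0276 without these libraries, so both genes passed in only 1 of the 2 fits. Of the 10 tested genes of the 2 families, 1 rose and 1 fell, beside 15.3% and 7.03% of all tested genes. The 8 that did not pass had log2 changes from -0.31 to 0.31.

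The mitochondrial chaperonin genes did not pass. HSPD1 (HSP60) was at 325 and 275 RPKM in wild type and 257 and 283 RPKM in knockdown (log2 change -0.15; limma, adjusted p = 0.353), and its log2 change was -0.03 without wild-type replicate 1 and -0.27 without wild-type replicate 2. HSPE1 (HSP10), its lid, was at 235 and 215 RPKM in wild type and 187 and 188 RPKM in knockdown, without overlap (log2 change -0.26; limma, adjusted p = 0.0688; -0.14 with quantile normalization and -0.16 with cyclic loess on the log2 scale). The 2 genes lie head to head on chromosome 2 and overlap on opposite strands, and the read-through gene HSPE1-MOB4 shares exons with HSPE1.

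HSPB1 (HSP27), a small heat shock protein that also binds actin and intermediate filaments, was the abundant member that rose. It was at 261 and 339 RPKM in wild type and 563 and 465 RPKM in knockdown, and both knockdown values exceeded both wild-type values. The log2 change was 0.78 (SE 0.14; limma, adjusted p = 0.00320). Replicates differed from each other more than in AHSA1 or HSPA8, and with no filter on low values the call was lost (adjusted p = 0.0605), although it held in the other 12 settings. HSPB1 stood at 0.715 and 1.08 times the HSPA8 level in wild type and at 2.83 and 2.28 times in knockdown. The other 3 small heat shock protein genes in the table were under 1 RPKM in every library and were not tested. CRYAB, an alpha-crystallin and so also a small heat shock protein, has a symbol outside the rule. It was at 0.396 and 0.383 RPKM in wild type and 1.59 and 1.67 RPKM in knockdown (log2 change 0.92; limma, adjusted p = 0.000290; log2 change 1.82 with a pseudocount of 0.1). CRYAB passed the filter of 1 RPKM only through its knockdown mean.

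Of 31 tested J-domain genes, 5 rose and 4 fell, beside 15.3% and 7.03% of all tested genes. The change furthest from zero was that of DNAJC12, a cochaperone of the aromatic amino acid hydroxylases. It was at 6.51 and 5.57 RPKM in wild type and 15.3 and 17.5 RPKM in knockdown, so the lowest knockdown value was more than double the highest wild-type one. The log2 change of 1.31 (SE 0.12; limma, adjusted p = 7.24e-05) was the 109th highest of all tested genes. DNAJB2, whose protein couples HSP70 to ubiquitin recognition and is enriched in neurons, rose from 4.89 and 5.10 RPKM to 8.49 and 8.32 RPKM (log2 change 0.65, SE 0.11; limma, adjusted p = 0.00236). Replicates of each group lay close together in DNAJB2. Both calls held in all 13 alternatives.

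The other 3 increases were less stable. DNAJB5 was at 0.389 and 0.493 RPKM in wild type and 1.01 and 1.10 RPKM in knockdown, a fold of 2.39 at a low level (log2 change 0.51, SE 0.11; limma, adjusted p = 0.00857). Of the 388 tested genes under 1 RPKM (by mean log2 level), 47.7% were called higher and 3.61% lower. DNAJB5 is among them and passed the filter only through its knockdown mean. Its log2 change was 1.10 with a pseudocount of 0.1, and its call was lost with quantile normalization (log2 change 0.20), with cyclic loess (0.30) and without wild-type replicate 1 (adjusted p = 0.0623). DNAJC4 was at 3.86 and 5.02 RPKM in wild type and 6.72 and 6.33 RPKM in knockdown (log2 change 0.48, SE 0.13; limma, adjusted p = 0.0269). It did not pass without wild-type replicate 1 (adjusted p = 0.121), without knockdown replicate 1 (adjusted p = 0.0955) or in 2 other settings. DNAJC25-GNG10, a read-through of DNAJC25 into the G protein subunit gene GNG10, was at 6.14 and 6.30 RPKM in wild type and 9.31 and 7.75 RPKM in knockdown (log2 change 0.40, SE 0.12; limma, adjusted p = 0.0394). Left out in turn, wild-type replicate 1, wild-type replicate 2 and knockdown replicate 1 each ended that call (adjusted p = 0.0771, 0.0627 and 0.350), as did 4 other settings. Both genes it joins can share its reads, and GNG10 was at 30.0 and 33.3 RPKM in wild type and 39.7 and 38.2 RPKM in knockdown (limma, adjusted p = 0.0643), while DNAJC25 itself was lower in knockdown (3.07 and 2.81 RPKM against 2.18 and 2.63 RPKM; adjusted p = 0.234).

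The J-domain genes that fell included 2 whose proteins work away from the bulk cytosol. DNAJC9, a cochaperone of HSP70 that also handles histones, was at 21.5 and 20.9 RPKM in wild type and 11.9 and 11.4 RPKM in knockdown. Its log2 change of -0.81 (SE 0.10; limma, adjusted p = 0.000476) was the 60th lowest of all tested genes, with tight replicates, and it held in all 13 alternatives. MRPS16, which overlaps DNAJC9 on the same strand, was at 34.5 and 36.5 RPKM in wild type and 36.9 and 32.4 RPKM in knockdown (limma, adjusted p = 0.839). DNAJC2, which sits at the ribosome and helps HSP70 receive nascent chains, was at 17.2 and 14.3 RPKM in wild type and 9.40 and 11.8 RPKM in knockdown (log2 change -0.53, SE 0.13; limma, adjusted p = 0.0192). The groups did not overlap, but the call was lost without wild-type replicate 1 (adjusted p = 0.0599), without knockdown replicate 1 (adjusted p = 0.130) and with no filter on low values.

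DNAJC7, a J-domain protein that can bind both HSP70 and HSP90, was at 15.6 and 14.4 RPKM in wild type and 10.2 and 11.5 RPKM in knockdown (log2 change -0.44, SE 0.11; limma, adjusted p = 0.0191). It did not pass without wild-type replicate 1 (adjusted p = 0.0558), without knockdown replicate 1 (adjusted p = 0.171) or in 2 other settings. Its opposite-strand neighbours CNP and NKIRAS2 did not pass (limma, adjusted p = 0.682 and 0.995). DNAJA1, the abundant cytosolic HSP40 that serves HSPA8, was at 172 and 150.0 RPKM in wild type and 127 and 132 RPKM in knockdown. Its log2 change of -0.31 (SE 0.10; limma, adjusted p = 0.0493) lay at the threshold and was lost in 8 of 13 settings, among them those without wild-type replicate 1, knockdown replicate 1 or knockdown replicate 2 (adjusted p = 0.219, 0.231 and 0.133). DNAJB1, the stress-inducible HSP40, was at 7.04 and 7.97 RPKM in wild type and 7.07 and 6.80 RPKM in knockdown (log2 change -0.10; limma, adjusted p = 0.570), so the groups overlapped. Its log2 change was -0.18 without wild-type replicate 1 and -0.02 without wild-type replicate 2. The 5 DNAJB genes that did not pass had log2 changes from -0.20 to -0.04 and the 15 such DNAJC genes from -0.26 to 0.20.

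**Figure D4:**
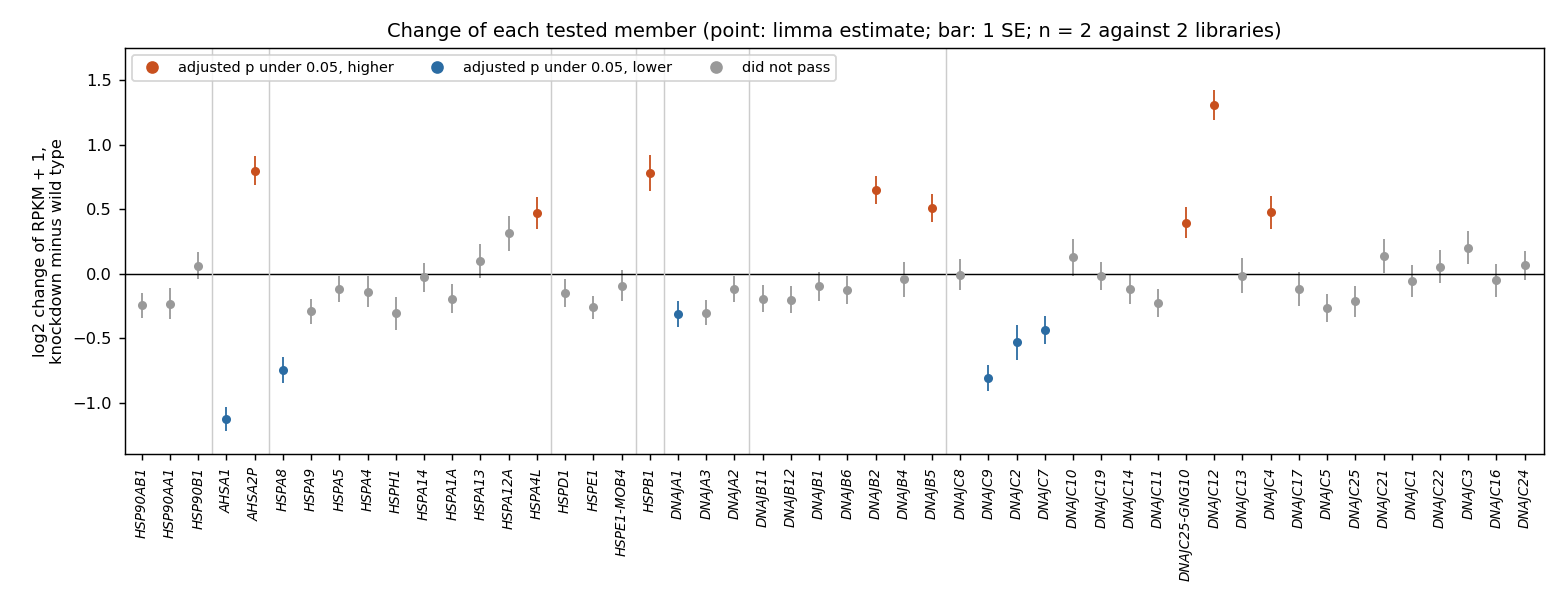
Log2 change of RPKM + 1, knockdown minus wild type, of each of the 50 tested members (point) with 1 SE of the limma fit on 2 against 2 libraries (bar), ordered as in the plot of levels. DNAJC12 is highest at 1.31 and AHSA1 lowest at -1.12, and most grey points, which did not pass, lie between zero and -0.31.

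The other 17 members in the table were under the filter, with RPKM between 0.00464 and 1.09, and 9 of them were under 0.2 RPKM in every library. Their libraries did not overlap in 5 higher and 2 lower genes, beside 38.1% and 9.94% of the 6859 genes under the filter. A further 9 members annotated in GENCODE v29 had no row in the table, 5 of them with a single exon.

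Junction events of J-domain genes differed in size and in how well replicates held together. In DNAJC25 the table compares skipping and inclusion of exon E2.2 (chr9:111642857-111643094, hg38, plus strand). This exon of 238 bases occurs in 1 transcript, one annotated as subject to nonsense-mediated decay, the pathway that degrades mRNA with an early stop codon. Its first bases up to the annotated stop codon of that transcript are shown, with the stop codon in capitals. The reading frame annotated for that transcript ends there, and annotated coding sequence of 2 transcripts overlaps the exon.
DNAJC25 E2.2, chr9:111642857-111642928: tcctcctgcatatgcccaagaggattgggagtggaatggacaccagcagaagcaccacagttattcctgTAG
The junction from E1.2 into E2.2 was at a PSI of 22.9% and 24.7% in wild type and 36.5% and 47.5% in knockdown. The junction from E2.2 into E3.2 was at 33.7% and 31.1% in wild type and 49.1% and 49.2% in knockdown. Skipping from E1.2 to E3.2 was at 50.9% and 49.0% in wild type and 31.1% and 34.8% in knockdown. Both inclusion junctions were higher and the skipping junction lower in both knockdown libraries, without overlap, but none passed (differences of 18.2, 16.7 and -17.0 points; limma, adjusted p = 0.282, 0.286 and 0.284).

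DNAJC22 had 2 events on 1 choice, the splice to exon E4.2 from exon E3.1 or from a site inside the intron at position 49351200 of chromosome 12. The junction from E3.1 was at 78.5% and 69.2% in wild type and 43.9% and 49.0% in knockdown. The one from inside the intron was at 6.54% and 6.31% in wild type and 31.7% and 20.6% in knockdown. The groups were apart in both, with differences of -27.4 and 19.7 points (limma, adjusted p = 0.259 and 0.275). DNAJC22 mRNA was at 1.96 and 2.46 RPKM in wild type and 2.18 and 2.48 RPKM in knockdown (adjusted p = 0.783).

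DNAJC5, which encodes the cysteine string protein of synaptic vesicles, showed its splice from E1.1 to E2.1 at 74.4% and 97.1% in wild type and at 67.6% and 64.5% in knockdown, so wild-type replicates differed by more than the gap between groups. DNAJC2 had inclusion of E5.1, an exon of 47 bases, at 21.9% and 8.33% in wild type and 31.3% and 15.2% in knockdown. Skipping of that exon was at 70.1% and 86.5% in wild type and 62.3% and 74.7% in knockdown, and in both events the groups overlapped. In DNAJC21, a factor of ribosome assembly, the junction from E11.2 into E13.1 was at 14.3% and 12.5% in wild type and 30.0% and 15.1% in knockdown. Its other event, from E14.3 to E14.5, was at 11.2% and 29.1% in wild type and 13.1% and 17.4% in knockdown. None of the events in these 3 genes passed, and their differences rest on 1 library or overlap.

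**Figure D5:**
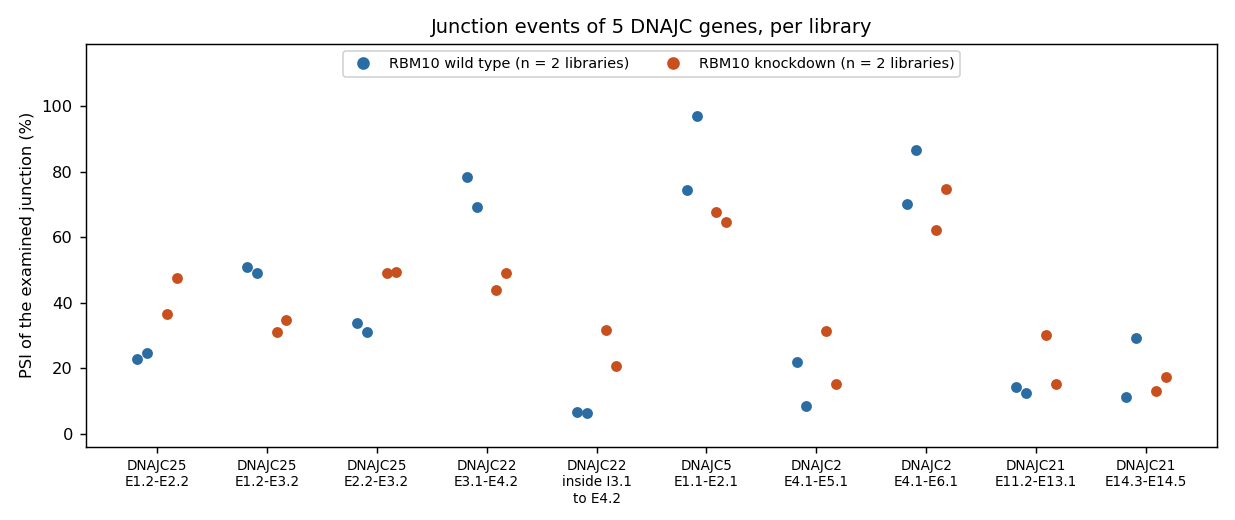
PSI (%) of the 10 events of DNAJC25, DNAJC22, DNAJC5, DNAJC2 and DNAJC21 in each library, with wild type in blue and knockdown in orange. The groups stand apart in DNAJC25 and DNAJC22 and overlap or nearly meet in DNAJC2 and DNAJC21.

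HSF1 binds promoters at heat shock elements, repeats of the letters GAA in alternating direction. The motif GAANNTTCNNGAA of 13 letters was searched on both strands in RefSeq promoter windows (GRCh38.p14) of 300 bases, 250 before and 50 after the annotated start. It occurred in 172 of 35116 windows (0.490%) and in those of 6 of the 59 members with a window, namely HSPA8, HSP90AB1, HSP90AA1, HSPD1, DNAJA1 and DNAJB6. A gene can have more than 1 window, so counts of members and shares of windows, here and below, are not in the same unit. All matches of 4 of these members are printed below in the direction of the gene with the motif in capitals. Of these 4, 2 fell, and the 2 HSP90 genes did not pass. Matches of HSPD1, which ranked 151st of all genes by mean RPKM, and of DNAJB6 are not printed, and neither gene passed.
HSPA8, chr11:123062346-123062374, minus strand: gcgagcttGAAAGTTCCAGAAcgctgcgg
HSPA8, chr11:123062171-123062199, minus strand: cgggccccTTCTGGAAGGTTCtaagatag
DNAJA1, chr9:33025268-33025296, plus strand: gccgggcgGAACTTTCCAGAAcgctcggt
HSP90AB1, chr6:44247770-44247798, plus strand: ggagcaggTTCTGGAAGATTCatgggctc
HSP90AB1, chr6:44247823-44247851, plus strand: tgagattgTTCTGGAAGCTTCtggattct
HSP90AA1, chr14:102087112-102087140, minus strand: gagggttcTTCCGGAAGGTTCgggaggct
The HSPA8 matches began 230 and 55 bases before the start, and that of DNAJA1 began 3 bases after it. Of the 6 genes with the motif, HSPA8 and DNAJA1 fell and the other 4 did not pass, beside 7.03% lower of all tested genes. The DNAJA1 call lay at the threshold and was lost in 8 of 13 settings. Whether the motif goes with the change was not tested. AHSA1, DNAJC9 and HSPB1 had no match to this motif in their windows, nor did HSPA1A and DNAJB1. The shorter motifs GAANNTTC or TTCNNGAA, which the longer one contains, occurred in 19 members and in 13.5% of all windows. HSPB1, HSPA1A and DNAJB1 were among these members, and AHSA1 and DNAJC9 were not. A match describes letters only and does not show binding.

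Of 25 tested genes on a list of HSF1 targets, 4 rose and 6 fell, or 16% and 24%, beside 15.3% and 7.03% of all tested genes. Their median log2 change was -0.20, and 20 of the 25 lay below zero, as they did under each scaling and with any 1 library left out. The libraries did not overlap in 5 higher and 17 lower genes of the list, beside 34.3% and 27.3% of all tested genes. Without the members, 13 were left, of which SERPINH1 and CRYAB rose and JMJD6, CHORDC1 and CACYBP fell (the last 3 named after their values were seen). HSF1 mRNA was at 28.9 and 32.4 RPKM in wild type and 34.1 and 29.5 RPKM in knockdown (log2 change 0.05; limma, adjusted p = 0.789), and its log2 change was -0.03 without wild-type replicate 1 and -0.05 without knockdown replicate 1. None of the 4 tested HSF family genes passed limma's test (0 at an unadjusted p under 0.05). SERPINH1 (HSP47), the collagen chaperone of the endoplasmic reticulum, rose from 16.1 and 16.7 RPKM to 27.6 and 26.1 RPKM (log2 change 0.68, SE 0.10; limma, adjusted p = 0.00119).

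Cochaperones outside the rule were counted in the same way. Of 23 tested HSP90 cochaperones, 2 rose and 4 fell, or 8.70% and 17.4%, beside 15.3% and 7.03% of all tested genes. UNC45A, which helps myosin fold, rose from 18.1 and 20.1 RPKM to 29.8 and 29.1 RPKM (log2 change 0.60; limma, adjusted p = 0.00285). PIH1D1, a subunit of the R2TP complex, rose from 23.2 and 25.5 RPKM to 37.4 and 31.3 RPKM (log2 change 0.48; limma, adjusted p = 0.0159; 0.156 without knockdown replicate 1). TOMM34, which escorts proteins toward mitochondria, fell from 20.7 and 18.8 RPKM to 13.2 and 14.0 RPKM (log2 change -0.51; limma, adjusted p = 0.00787). The groups did not overlap in these 3 genes. STIP1, PTGES3 and CDC37, which hand clients to HSP90 or hold it closed, had log2 changes of -0.19, -0.26 and -0.27 and did not pass (chosen after their values were seen).

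Of 16 tested HSP70 cochaperones, 2 rose and 1 fell, or 12.5% and 6.25%, beside 15.3% and 7.03% of all tested genes. The gene that fell, GRPEL1, the exchange factor of mitochondrial HSPA9, went from 12.3 and 11.3 RPKM to 6.06 and 6.92 RPKM (log2 change -0.77; limma, adjusted p = 0.00122). SGTB, which binds HSP70 through its TPR domain, rose from 2.15 and 1.64 RPKM to 2.84 and 3.24 RPKM (log2 change 0.49; limma, adjusted p = 0.0236). Its call was lost without knockdown replicate 2 (adjusted p = 0.0847) and without wild-type replicate 2 (0.120). GRPEL1 was also the only gene of 14 tested mitochondrial chaperones and proteases to pass, and none of the 14 rose. The shares were 7.14% lower and 0% higher, beside 7.03% and 15.3% of all tested genes.

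On a list of chaperones of the endoplasmic reticulum that also holds genes of its stress response, such as XBP1, ATF6 and DDIT3, 2 of 18 tested genes passed, SERPINH1 and HERPUD1, both higher. The share higher was 11.1%, beside 15.3% of all tested genes. HERPUD1, which acts in the removal of misfolded proteins, was at 8.33 and 7.53 RPKM in wild type and 10.4 and 10.6 RPKM in knockdown (log2 change 0.36; limma, adjusted p = 0.0387), and the call was lost without wild-type replicate 2, knockdown replicate 1 or knockdown replicate 2 (adjusted p = 0.138, 0.164 and 0.206). In the cytosolic chaperonin CCT and its partner prefoldin, which fold actin and tubulin, 1 of 14 tested genes passed (7.14% lower, beside 7.03% of all tested genes). That gene, VBP1, fell from 32.5 and 26.4 RPKM to 22.0 and 22.5 RPKM (log2 change -0.38; limma, adjusted p = 0.0422), and was not called without wild-type replicate 1, knockdown replicate 1 or knockdown replicate 2 (adjusted p = 0.200, 0.134 and 0.0936; log2 change -0.24 without wild-type replicate 1). All 14 had log2 changes below zero, from -0.38 to -0.05, while 13 of 14 did with cyclic loess, without wild-type replicate 1 and without knockdown replicate 1. The groups did not overlap in 12 of them, all lower, beside 27.3% of all tested genes. Over the 7 lists, 91 distinct genes outside the members were tested, of which 7 rose and 7 fell, beside 15.3% and 7.03% of all tested genes. Their median log2 change was -0.10, against 0.02 over all tested genes.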

How the data were processed

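Per the submitters' processing notes, STAR 2.6.1 and genome build hg38 were used. Which counter, annotation and splicing caller were used, and whether strand was, is not given in the sources used here. As gene levels the authors deposited a table in the form of RPKM, a unit inferred from the values, in which low values step in whole reads. Each of its genes without reads holds a small shared value instead of 0. The authors deposited PSI as a fraction from 0 to 1, with no read numbers.

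Gene symbols were found for 16921 of 17041 IDs in a name table, and the rest were looked up in GENCODE v29. Expression was tested as log2(RPKM + 1), keeping genes whose mean reached 1 RPKM in either group, and PSI fractions in events with 4 values, with limma 3.58.1 in R 4.3.3 (expression with trend; two-sided, Benjamini-Hochberg over all tested, adjusted p under 0.05; for PSI also a difference of 0.1). No covariate was used.

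The members and the 7 lists were chosen with earlier results of these data known. Named were members past the test, main chaperones, members with an event, RBM10, HSF1, and up to 3 genes past the test per list, of which 1 is not reported here. Alternatives were another pseudocount, other filters, scalings and trend settings, logit PSI, a replicate block, and leaving out each library. Splice-site sequences came from GENCODE v29 transcripts and promoters from RefSeq (GRCh38.p14).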

Additional observations from a re-analysis of the deposited data

How the results depend on the processing

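No result changed sign past the test under any alternative, and the 14 called members kept their direction in all of them. Of these, 6 (AHSA1, AHSA2P, HSPA8, DNAJC9, DNAJC12 and DNAJB2) passed in all 13 settings and 8 lost the call in 1 or more. With no filter on low values, 5 members were higher and 3 lower, their median log2 change was -0.0292, and 3 list genes were higher and 2 lower. A filter at a mean of 5 RPKM left 4 list genes higher, quantile normalization 4 members and 4 list genes higher, and limma without trend 4 list genes lower. With 1 library left out, 5 to 7 members were higher and 3 to 8 lower, their median was -0.169 to -0.0615, and 4 to 7 list genes were higher and 4 to 11 lower. In these fits the lone library of a group is taken to vary like the others. Member PSI events past the test remained 0 with any library left out, on the logit scale and in events with values in at least 3 libraries.

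With a replicate block, 7 members were higher, 4 lower and 2 list genes lower, and 1 member PSI event, E8.1 into I8.1 of AHSA2P, passed (limma, adjusted p = 0.000497). The deviations of same-numbered libraries correlated at -0.444 in expression and -0.0396 in PSI, so the numbers were not taken as pairs. A block with crossed numbers, added after seeing the data, gave 9 members higher and 14 lower, and 12 list genes higher and 30 lower. Depth behind a PSI is unknown, and 2 libraries a group limit every test.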
